A study of Mus musculus with 4 samples.

Results

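The cell membrane of a muscle fiber is shaped and mended by a small set of proteins, and 10 of their genes were followed in Rspo1-null and wild-type myocytes: the caveolins Cav1, Cav2 and Cav3, the T-tubule gene Bin1, the ferlins Dysf and Myof, and Trim72, Anxa1, Anxa2 and Capn3 of membrane repair. They were taken by name for these known roles, with no value in the rule, though with earlier results of these data known. All 10 were found among the 24011 genes measured. The 2 Rspo1-null cultures came from mice lacking R-spondin1, a secreted enhancer of Wnt signaling, and were set against 2 wild-type cultures. All 4 cultures were primary myoblasts from limb muscles of mice on a C57bl6N/sv129 background. Per the labels they had been expanded in 20% FBS with 2 ng/ml bFGF over 5 passages, and then differentiated in 2% horse serum for 24 h. RNA of each culture was read on 1 Affymetrix GeneChip Mouse Gene 2.1 ST array. The arrays carry log2 values, in which a difference of 1 is a doubling, and levels of different genes cannot be set against each other on this scale. The design text calls the cultures of a genotype independent but does not name their animals. Each error and p-value thus rests on the spread between cultures (n = 2 per genotype). In limma that spread is drawn toward the one typical of all genes.

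Caveolae are flask-shaped pits of the plasma membrane. Caveolin-1 and caveolin-2 build them in most cell types and caveolin-3 in muscle, together with the cavin coat proteins. During muscle differentiation, caveolin-3 and the membrane-bending protein BIN1 also take part in forming the transverse tubules, inward folds of the membrane that carry the action potential into the fiber. When the membrane tears, calcium enters, and dysferlin, TRIM72 (also called MG53) and annexins gather at the wound to seal it. Loss of caveolin-3, dysferlin or the muscle protease calpain-3 causes limb-girdle muscular dystrophies or related muscle diseases in humans.

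Some facts of the arrays bear on every value that follows. Rspo1 itself had log2 values of 5.29 and 5.33 in the Rspo1-null arrays 1 and 2, against 5.71 and 5.84 in the wild-type arrays 1 and 2. Its difference was -0.46 with a standard error of 0.15 (unadjusted p = 0.0286 and adjusted p = 0.999 from limma). The genotypes did not overlap, as in 31.2% of all genes. In limma the unadjusted p was 0.0569 with an intensity trend and 0.0664 with the replicate block. Which exons the deletion removes was not set against the probes. Rspo1 lay above the background level of 4.70 in all 4 arrays (set from 1365 genes of olfactory and vomeronasal receptors, as the 95th percentile of their means). Xist, expressed from the inactive X chromosome of female cells, marked the arrays Rspo1-null 1 and wild-type 2, with 10.38 and 10.39, whereas Rspo1-null 2 and wild-type 1 had 4.07 and 4.35. Eif2s3y, a gene of the Y chromosome, was low in the arrays with Xist, with 3.51 in Rspo1-null 1 and 2.60 in wild-type 2, and high in the others, with 8.51 in Rspo1-null 2 and 8.19 in wild-type 1. Each genotype thus held 1 array with Xist and 1 with Y-linked transcripts, so that the spread within a genotype also holds any difference between these pairs. Over all genes, Pearson's r was 0.988 between the arrays with Xist and 0.981 between those with Y-linked transcripts. It was 0.979 between the Rspo1-null arrays and 0.975 between the wild-type arrays (genes are not independent replicates). Rspo1-null 2 and wild-type 2 had 0.980, and Rspo1-null 1 and wild-type 1 had 0.973. The values do not settle whether labels of cultures were exchanged, and each genotype difference holds for the labels as given. Muscle identity was clear in all 4 arrays, with Myod1 between 9.87 and 10.34 and Des, the muscle intermediate filament desmin, between 10.15 and 10.97. Of 12 fibroblast markers, 7 were below background on every array, among them Dcn, Lum and Pdgfra, with at most 3.27. Above background on all 4 arrays were 4, namely Col3a1 (7.09 to 7.82), Fbln1 (5.65 to 6.40), Thy1 (5.12 to 6.27) and Col1a1 (4.93 to 5.16).

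No member differed between the genotypes beyond the spread of the cultures. In limma, fitted over all 24011 genes, 0 of the 10 members passed an unadjusted p of 0.05, where 3.17% of all genes did. After Benjamini-Hochberg adjustment 0 members and 0% of all genes passed, and the members' adjusted p lay between 0.999 and 1. The mean of the Rspo1-null arrays was above that of the wild-type arrays in 7 members and below it in 3, with a median log2 difference of 0.19 over the members, beside -0.03 over all genes. That median was 0.42 without Rspo1-null 1, 0.049 without Rspo1-null 2, 0.07 without wild-type 1 and 0.28 without wild-type 2. The arrays of the genotypes overlapped in every one of the 10 members, whereas they did not overlap in 31.2% of all genes. With 2 arrays a genotype, overlap alone keeps the difference within the larger gap between cultures of the same genotype. That this gap exceeded the difference in all 10 members therefore adds nothing to the overlap.

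**Figure D1:**
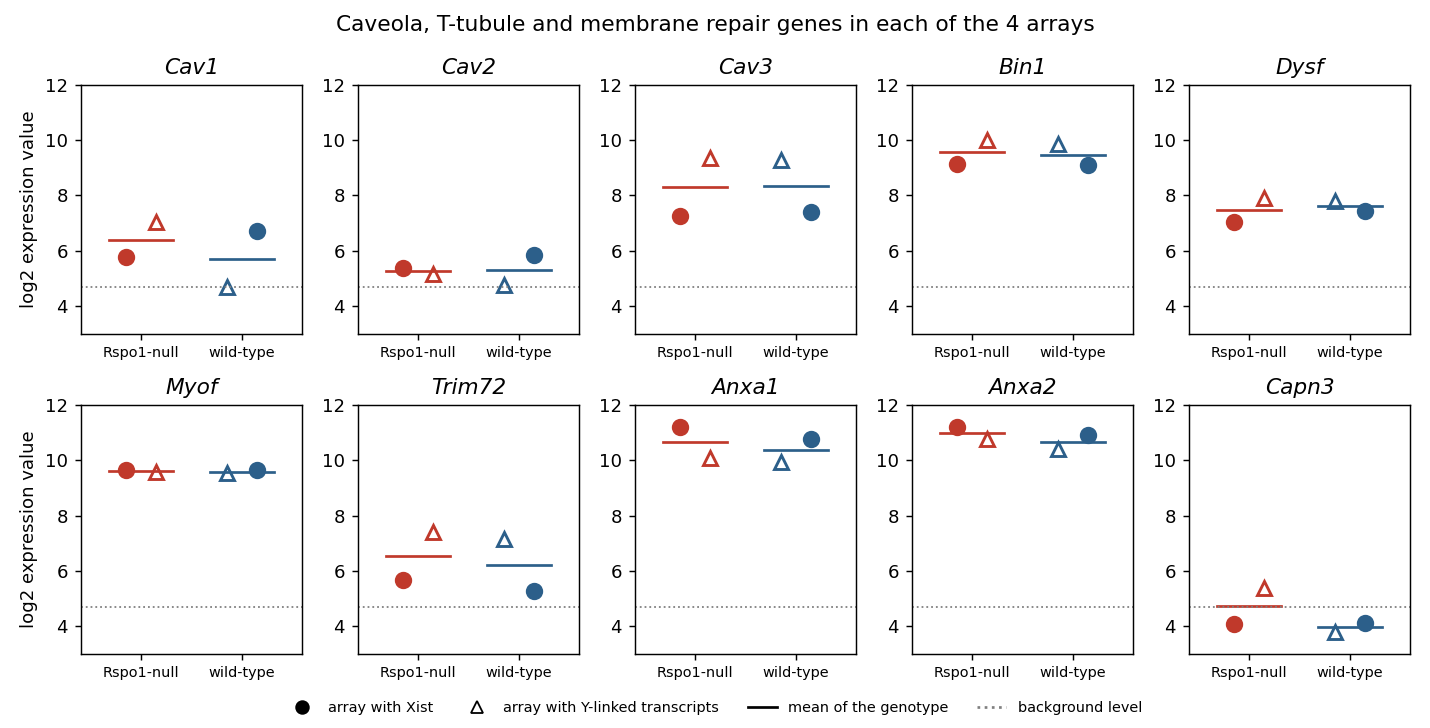
Log2 expression values (y axis) of the 10 members in the Rspo1-null (red, left) and wild-type (blue, right) arrays. Filled circles are the arrays with Xist, open triangles those with Y-linked transcripts, short lines the genotype means and the dotted line the background level of 4.70; the genotypes overlap in every panel, and in Cav3 and Trim72 the circles lie well below the triangles.

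Caveolin-3, the muscle caveolin, had the largest standard error of the set. Cav3 had log2 values of 7.27 and 9.37 in the Rspo1-null arrays 1 and 2, against 9.27 and 7.40 in the wild-type arrays 1 and 2. Each genotype thus held a high and a low culture, with gaps of 2.10 between the Rspo1-null and 1.88 between the wild-type cultures. The genotype difference, Rspo1-null minus wild-type, was -0.02 with a standard error of 0.93 (adjusted p = 1 from limma). Its 95% confidence interval ran from -2.48 to 2.44, and its upper end is a 5.42-fold higher level in Rspo1-null. The stretch of 250 bases before its start site is shown because Cav3 had the largest difference between the arrays with and without Xist among the members. It lies on the plus strand at chr6:112459255-112459504 of GRCm38.p6 (RefSeq), with matches to the E-box CANNTG, the letters that MyoD and myogenin bind, in capitals.
Cav3 promoter: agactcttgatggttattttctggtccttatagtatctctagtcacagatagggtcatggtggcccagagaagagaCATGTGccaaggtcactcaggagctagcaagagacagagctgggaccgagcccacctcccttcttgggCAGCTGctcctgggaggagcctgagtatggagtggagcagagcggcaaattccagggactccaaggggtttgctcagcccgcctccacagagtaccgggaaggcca
The window held 2 E-boxes, at 174 and 106 bases before the start site, and the one nearer to it reads CAGCTG. Of 32851 mouse promoter windows of this length, 66.2% held an E-box and 13% held CAGCTG, searched on both strands, since both motifs read the same on either. These matches are letters in a window and were not tested for binding.

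The widely expressed caveolins Cav1 and Cav2 lie next to each other on chromosome 6, 17205 bases apart, and they spread in another way. Cav1 had 5.78 and 7.03 in the Rspo1-null arrays 1 and 2, against 4.68 and 6.71 in the wild-type arrays 1 and 2. The lowest value, in wild-type 1, was just under background, and the wild-type 2 value lay between the Rspo1-null values. The difference was 0.71 (standard error 0.79, 95% interval from -1.38 to 2.80, adjusted p = 0.999 from limma), and it was -0.30 without wild-type 1, so that its direction rested on that array. Cav2, whose protein needs caveolin-1 to reach the surface, had 5.36 and 5.16 in the Rspo1-null arrays 1 and 2, against 4.77 and 5.86 in the wild-type arrays 1 and 2. Both Rspo1-null values lay between the wild-type values. The difference was -0.06 (standard error 0.39, 95% interval from -1.07 to 0.96). Without wild-type 1, Cav2 had -0.60, and without wild-type 2 it had 0.49.

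Bin1 encodes amphiphysin 2, whose muscle form bends membrane into tubules. It had log2 values of 9.15 and 10.02 in the Rspo1-null arrays 1 and 2, against 9.85 and 9.12 in the wild-type arrays 1 and 2. As in Cav3, the low cultures were Rspo1-null 1 and wild-type 2, at nearly the same value. The difference between the genotypes was 0.10 (standard error 0.40, 95% interval from -0.95 to 1.15, adjusted p = 1 from limma).

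The 2 ferlins, large calcium-binding membrane proteins, differed in how much they varied. Dysf, which encodes dysferlin, had 7.05 and 7.91 in the Rspo1-null arrays 1 and 2, against 7.80 and 7.42 in the wild-type arrays 1 and 2. The wild-type values lay inside the range of the Rspo1-null values, and the difference was -0.13 (standard error 0.34, 95% interval from -1.02 to 0.76). Myof encodes myoferlin, a relative of dysferlin that acts in myoblast fusion. It had 9.65 and 9.57 in the Rspo1-null arrays 1 and 2, against 9.53 and 9.65 in the wild-type arrays 1 and 2. Myof was the steadiest member, with all 4 cultures close together. Its difference of 0.02 had a standard error of 0.15 and a 95% interval from -0.37 to 0.40, which bounds a change at 1.32-fold upward and at 0.774 times the wild-type level downward.

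**Figure D2:**
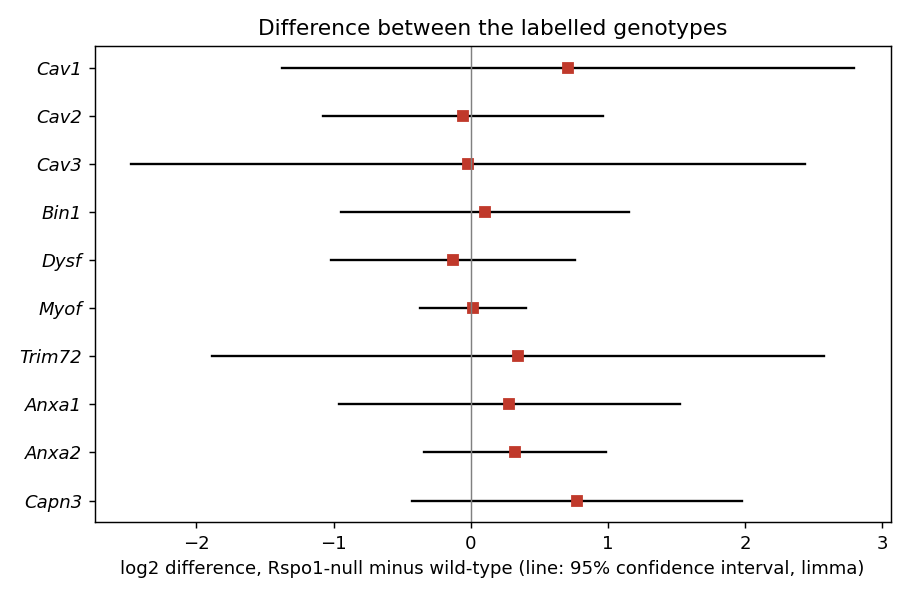
Log2 difference of each member, Rspo1-null minus wild-type (x axis, squares), with its 95% confidence interval from limma (lines). All 10 intervals include 0, from the narrowest for Myof (-0.37 to 0.40) to the widest for Cav3 (-2.48 to 2.44).

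Among the genes of wound sealing, Trim72 spread like Cav3 and the annexins the other way. Trim72, a muscle ubiquitin ligase that brings vesicles to the tear, had 5.68 and 7.40 in the Rspo1-null arrays 1 and 2, against 7.14 and 5.25 in the wild-type arrays 1 and 2. The difference was 0.34 (standard error 0.85, 95% interval from -1.89 to 2.57, adjusted p = 0.999 from limma). The gap between cultures of a genotype, 1.72 in Rspo1-null and 1.88 in wild-type, was several times as large. Anxa1, a calcium-dependent phospholipid-binding protein, had 11.20 and 10.10 in the Rspo1-null arrays 1 and 2, against 9.95 and 10.79 in the wild-type arrays 1 and 2. Here Rspo1-null 1 and wild-type 2 were the high cultures. Its difference was 0.28 (standard error 0.47, 95% interval from -0.96 to 1.53). Anxa2, a further annexin of the repair cap, had 11.20 and 10.79 in the Rspo1-null arrays 1 and 2, against 10.43 and 10.92 in the wild-type arrays 1 and 2. Its difference was 0.32 (standard error 0.25, 95% interval from -0.34 to 0.98), and it stayed positive, from 0.08 to 0.57, whichever array was left out. The windows of 250 bases before the start sites of Trim72 (chr7:128004128-128004377, plus strand), Anxa1 (chr19:20390672-20390921, minus strand) and Anxa2 (chr9:69453433-69453682, plus strand) of GRCm38.p6 (RefSeq) are shown because these genes parted the cultures in opposite directions, with E-boxes in capitals.
Trim72 promoter: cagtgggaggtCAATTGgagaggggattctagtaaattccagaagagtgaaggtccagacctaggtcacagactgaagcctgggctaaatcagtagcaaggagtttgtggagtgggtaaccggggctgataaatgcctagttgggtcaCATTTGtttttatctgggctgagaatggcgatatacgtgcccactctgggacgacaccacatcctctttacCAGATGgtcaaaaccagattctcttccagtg
Anxa1 promoter: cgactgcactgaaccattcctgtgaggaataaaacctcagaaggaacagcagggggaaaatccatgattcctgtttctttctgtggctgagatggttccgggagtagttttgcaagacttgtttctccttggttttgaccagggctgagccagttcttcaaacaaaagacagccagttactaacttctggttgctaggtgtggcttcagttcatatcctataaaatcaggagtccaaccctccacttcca
Anxa2 promoter: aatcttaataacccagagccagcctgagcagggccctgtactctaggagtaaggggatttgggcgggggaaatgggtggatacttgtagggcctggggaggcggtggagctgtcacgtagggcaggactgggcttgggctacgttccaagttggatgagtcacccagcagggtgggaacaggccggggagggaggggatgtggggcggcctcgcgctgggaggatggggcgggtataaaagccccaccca
The Trim72 window held 3 E-boxes, at 239, 102 and 31 bases before the start site, none of them CAGCTG, and the Anxa1 and Anxa2 windows held 0. Promoters were matched for 9 of the 10 members. Cav2, higher in both arrays with Xist like the annexins, held 2 E-boxes. The windows of Dysf, lower in both arrays with Xist like Trim72, held 0. Each of the Cav1 and Capn3 windows held 1 and that of Myof 0. An E-box was present in 66.2% of all windows, and a link between these matches and the values was not tested.

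Capn3, the muscle-specific calpain, was close to background. It had 4.09 and 5.38 in the Rspo1-null arrays 1 and 2, against 3.80 and 4.13 in the wild-type arrays 1 and 2. The genotypes overlapped, and only Rspo1-null 2 was above the background level of 4.70. The measured difference was 0.77 (standard error 0.46, 95% interval from -0.43 to 1.98, adjusted p = 0.999 from limma). Since Rspo1-null 1 and both wild-type arrays lay below background, the size of this difference is not a measured fold. The value rested on Rspo1-null 2, with 1.42 without Rspo1-null 1 and 0.13 without Rspo1-null 2. The 250 bases before the first of its 2 start sites, at chr2:120463343-120463592 on the plus strand of GRCm38.p6 (RefSeq), are shown because this was the single member window with a match to MEF2, a motif of muscle transcription factors. The match (72 bases before the start site) and the E-box (214 bases before it, reading CAGCTG) are in capitals.
Capn3 promoter: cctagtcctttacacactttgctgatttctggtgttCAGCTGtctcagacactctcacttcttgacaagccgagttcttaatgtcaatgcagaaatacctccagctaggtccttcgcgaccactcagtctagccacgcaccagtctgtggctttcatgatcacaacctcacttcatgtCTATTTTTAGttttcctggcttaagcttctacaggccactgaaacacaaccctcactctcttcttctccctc
On both strands, a MEF2 match was present in 2.92% of the 32851 windows, and a CArG box, the SRF motif, in 1.47% of them and in 0 windows of the members.

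The larger pattern among the members lay across the genotypes. Cav3, Bin1, Dysf and Trim72 were lower in both arrays with Xist (Rspo1-null 1 and wild-type 2) than in both arrays with Y-linked transcripts (Rspo1-null 2 and wild-type 1). Anxa1, Anxa2, Cav2 and Myof were higher in both arrays with Xist. Thus 8 of the 10 members parted the arrays in this way, 4 lower and 4 higher, beside 22.2% of all genes lower and 19.8% higher, and beside 48.1% of the genes above background that parted in either direction. By size, the mean of the arrays with Xist minus that of the others was -1.99 for Cav3, -1.80 for Trim72, -0.80 for Bin1 and -0.62 for Dysf. It was 0.97 for Anxa1, 0.64 for Cav2, 0.45 for Anxa2 and 0.10 for Myof. On the linear scale, Cav3 was at 0.252 and Trim72 at 0.287 times the level of the other pair. Cav1 and Capn3 overlapped, with 0.39 and -0.48.

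Genes of the differentiation state moved with this pattern. Myog, the transcription factor myogenin, had 9.96 in Rspo1-null 1 and 9.56 in wild-type 2, against 11.70 in Rspo1-null 2 and 11.07 in wild-type 1. Ckm, which encodes creatine kinase of muscle, stood at 6.06 in Rspo1-null 1 and 5.55 in wild-type 2, against 8.16 in Rspo1-null 2 and 8.92 in wild-type 1. Pax7 and Myf5, genes of satellite cells and myoblasts, went the other way, with 8.17 and 7.85 for Pax7 and 8.21 and 8.25 for Myf5 in the arrays with Xist, against 7.10 and 6.38 for Pax7 and 6.81 and 5.91 for Myf5 in the others. Of the 11 genes of this list, all above background, all 11 parted the arrays, 9 lower and 2 higher in the arrays with Xist. Of all genes, 22.2% were lower and 19.8% higher, and 48.1% of the genes above background parted in either direction. Cav3, Bin1, Dysf and Trim72 lay on the side of Myog and Ckm, and Anxa1, Anxa2, Cav2 and Myof on the side of Pax7 and Myf5.

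**Figure D3:**
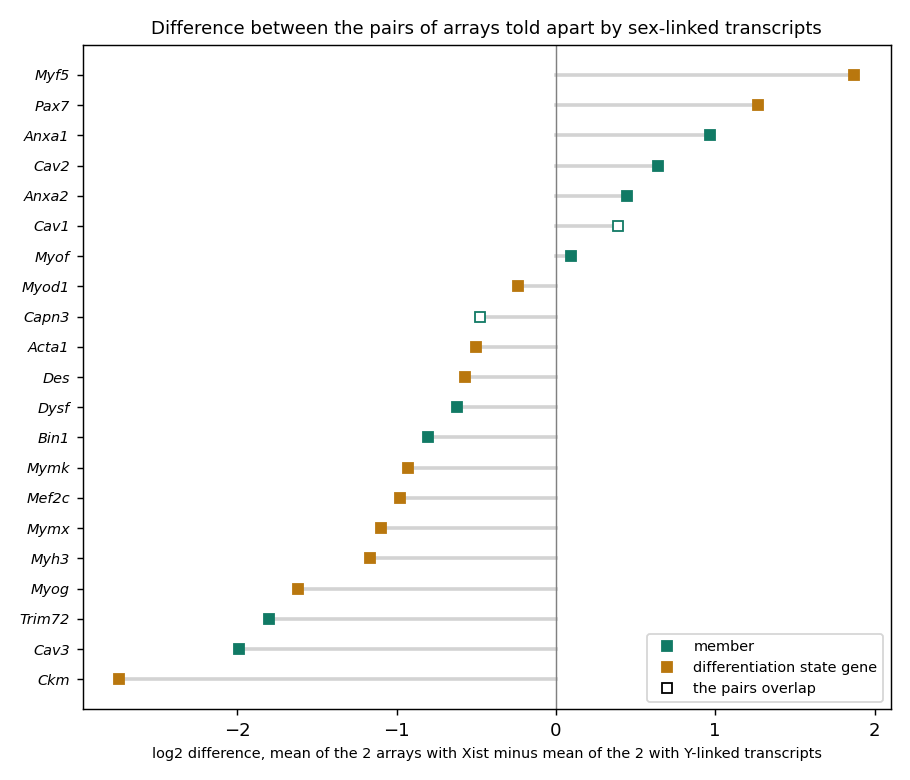
Mean of the 2 arrays with Xist minus mean of the 2 arrays with Y-linked transcripts (x axis, log2), for the 10 members (green) and 11 genes of the differentiation state (ochre); open squares mark genes whose pairs overlap. Cav3 (-1.99) and Trim72 (-1.80) sit between Ckm (-2.74) and Myog (-1.62), and Anxa1 (0.97) beside Pax7 (1.27) and Myf5 (1.87).

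Summed levels of some markers of other cells moved with the pattern too. The summed log2 level of 12 fibroblast markers was 9.02 and 8.74 in the arrays with Xist (Rspo1-null 1 and wild-type 2), against 8.52 and 8.56 in the others. Of the 12, 3 were higher in both arrays with Xist (Col1a1, Col3a1 and Fbln1), beside 19.8% of all genes. The 4 that were lower were Dcn, Col1a2, Pdgfrb and Tcf21, beside 22.2% of all genes. A sum weighs genes with high values most, such as Col3a1, with 7.82 and 7.61 in the arrays with Xist, against 7.09 and 7.16. The sum thus does not stand for the whole list. Smooth muscle and pericyte markers (8 genes, 3 below background on every array) summed to 8.29 and 8.04 in the arrays with Xist, against 8.77 and 8.48 in the others. Of these only Smtn was lower in both arrays with Xist, with 6.43 and 6.44 against 8.05 and 7.41, and Notch3 and Myh11 were higher in both. The fibroblast and smooth muscle sums did not overlap between the pairs. Nor did that of the adipocyte markers (7 genes, 6 below background on every array), with 6.45 in both arrays with Xist, against 6.62 and 6.66. Of these 7, 0 were above background on all 4 arrays, so that this sum is made of values near background. Lower in both arrays with Xist were 3 of them (Adipoq, Lep and Pparg), beside 22.2% of all genes. The 10 endothelial markers, of which 9 with Pecam1 and Cdh5 were below background on every array, summed to 7.08 and 7.14, against 7.13 and 7.34, and overlapped. The 8 macrophage markers, 7 of them below background on every array, summed to 7.10 and 7.15, against 7.02 and 7.28, and overlapped as well. Of these lists 1 gene passed an unadjusted p of 0.05 between the genotypes, Adgre1 of macrophages, with a difference of -0.49 and all 4 values below background. The part of donor sex, of the stage of differentiation and of other cells in the members' pattern was not tested. Sex and any other difference between the pairs cannot be told apart, nor can fewer cells of a type and less RNA per cell in bulk cultures.

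Set within the arrays of the same sex-linked pattern, where the genotype comparison has 1 array against 1, the members split by whether the pairs gave the same sign. A positive difference, Rspo1-null minus wild-type, was kept in both pairs by 4 members: Anxa2 (0.28 in the arrays with Xist and 0.36 in the others), Anxa1 (0.41 and 0.16), Trim72 (0.43 and 0.26) and Bin1 (0.03 and 0.17). In 6 members the sign differed between the pairs, most widely in Cav1, with -0.93 in the arrays with Xist and 2.35 in the others. The share of all genes that split this way was not counted, so these counts are not particular to the members.

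**Figure D4:**
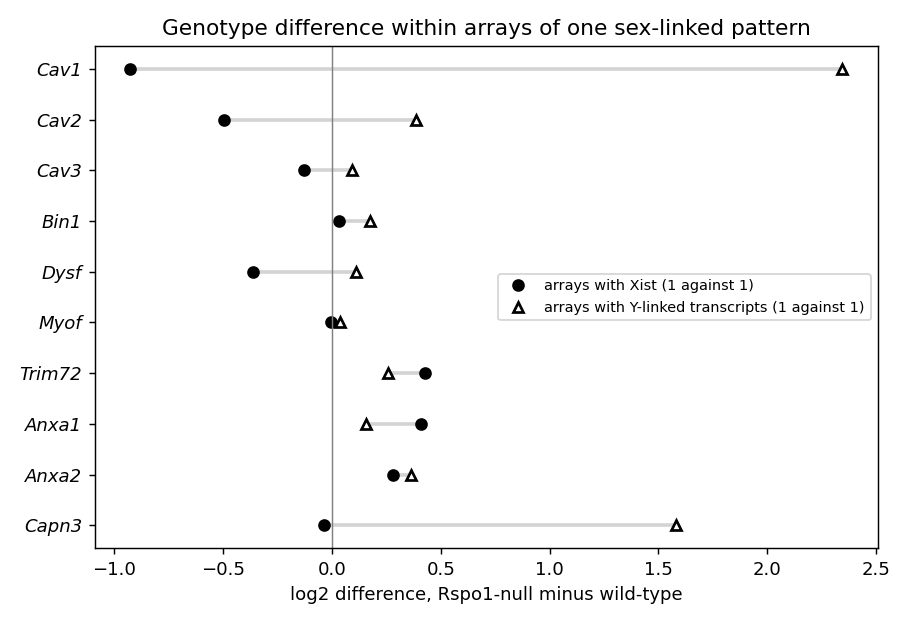
Log2 difference, Rspo1-null minus wild-type (x axis), of each member within the arrays with Xist (filled circles) and within those with Y-linked transcripts (open triangles), 1 array against 1 in each. Cav1 (-0.93 and 2.35) and Capn3 (-0.04 and 1.58) differ most between the pairs, and Anxa2 (0.28 and 0.36) little.

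Partners of the members were followed in 6 lists that hold 58 genes, of which 56 were analysed here. At the threshold of 0.05, 0 of the 56 passed in limma after adjustment, and 1 before it, where 3.17% of all genes did. This was Capns1, the small subunit shared by calpain-1 and calpain-2, with 10.53 and 10.64 in the Rspo1-null arrays 1 and 2, against 9.85 and 10.26 in the wild-type arrays 1 and 2. Both Rspo1-null values lay above both wild-type values, and the difference was 0.53 (standard error 0.20, unadjusted p = 0.0480 from limma). This call was lost with the replicate block (unadjusted p = 0.0603), with cyclic loess (0.0672) and among genes above background alone (0.0652), with the methods' test, and without Rspo1-null 1, Rspo1-null 2 or wild-type 1 in turn. Over the 56 genes, 36 had a positive and 20 a negative difference, with a median of 0.13, beside 10766 positive and 13242 negative among all genes. The genotypes did not overlap in 20 of them, 12 higher and 8 lower in Rspo1-null, a share near the 31.2% of all genes.

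In the coat and neck of caveolae, Cavin2 stood out. This cavin, which helps to shape the caveolar membrane, had 8.87 and 7.55 in the Rspo1-null arrays 1 and 2, against 7.31 and 7.02 in the wild-type arrays 1 and 2. The genotypes did not overlap, but Rspo1-null 1 alone carried most of the difference of 1.05, which was 0.39 without it. In limma its standard error was 0.47, with an unadjusted p of 0.0786 and an adjusted p of 0.999. Without Rspo1-null 2 the difference was 1.71, and with the replicate block the unadjusted p was 0.0434. Cavin1, the core coat protein of caveolae, had 0.22 (standard error 0.23). Cavin3 had -0.11 (standard error 0.23) and the muscle cavin Cavin4 -0.14 (standard error 0.32). Ehd2, an ATPase at the caveolar neck, had 0.40 (standard error 0.21; 0.17 to 0.63 with 1 array left out), and Pacsin3, a membrane-bending protein of muscle caveolae, had -0.0023 (standard error 0.36). Cavin4, like Cav3, was lower in both arrays with Xist, with 10.32 in Rspo1-null 1 and 10.38 in wild-type 2, against 10.85 in Rspo1-null 2 and 11.06 in wild-type 1.

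Of the genes of T-tubules and the triad, the junctophilins, which hold the tubule to the sarcoplasmic reticulum, spread like Bin1. Jph1 had 6.31 and 7.55 in the Rspo1-null arrays 1 and 2, against 7.61 and 6.49 in the wild-type arrays 1 and 2, a difference of -0.12 (standard error 0.56). Jph2 had a difference of 0.04 (standard error 0.30). Dnm2, the membrane-cutting GTPase that binds BIN1, had values from 7.74 to 7.88, both Rspo1-null values above both wild-type values, and a difference of 0.11 (standard error 0.14). It passed the methods' test at an unadjusted p of 0.0422, but not limma. Mtm1, a lipid phosphatase whose loss causes myotubular myopathy, was dim, with both genotype means below 4.70 and a difference of -0.18 (standard error 0.17). Of the 10 genes measured in this list, 5 were lower and 3 higher in both arrays with Xist, beside 22.2% lower and 19.8% higher of all genes.

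Among further repair genes, Anxa5 resembled Anxa1. It had 9.75 and 8.83 in the Rspo1-null arrays 1 and 2, against 8.08 and 9.29 in the wild-type arrays 1 and 2, a difference of 0.60 (standard error 0.52). Anxa6 had 10.59 and 10.46 in the Rspo1-null arrays 1 and 2, against 9.93 and 10.43 in the wild-type arrays 1 and 2, so that the genotypes did not overlap, with a difference of 0.34 (standard error 0.22). S100a10, the partner that binds annexin A2, had a difference of 0.20 (standard error 0.23) and Ano5, a membrane protein of which loss causes a limb-girdle dystrophy in humans, -0.24 (standard error 0.31). The 4 other ferlins were all dim, and Fer1l5 had 0.38 (standard error 0.17). Capn1 had a difference of 0.57 (standard error 0.57), Capn2 0.31 (standard error 0.20) and their inhibitor Cast, calpastatin, 0.27 (standard error 0.24). In the fit without a block, none of these 8 passed an unadjusted p of 0.05. Anxa6 ranged from 0.09 to 0.59 when 1 array was left out, Capn2 from 0.11 to 0.52 and Cast from 0.00049 to 0.53.

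**Figure D5:**
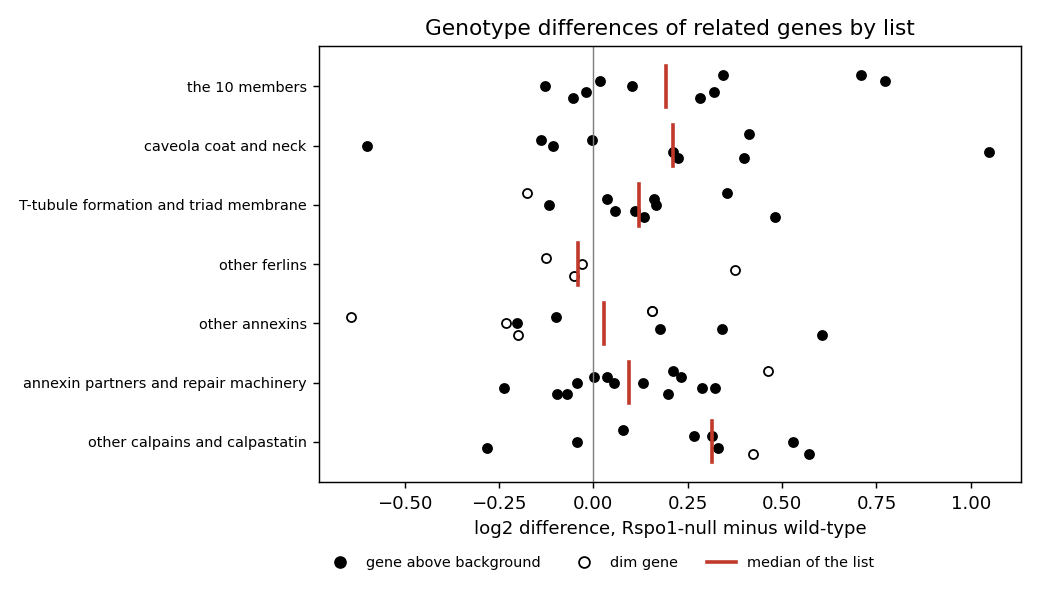
Log2 difference, Rspo1-null minus wild-type (x axis), of the 10 members and of 56 related genes in 6 lists (rows), with dim genes as open circles and the list median as a red line. The medians run from -0.04 for the other ferlins, all of them dim, to 0.31 for the other calpains and calpastatin, beside 0.19 for the members.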

How the data were processed

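RNA of 4 cultures was hybridized to Affymetrix arrays. The table that the authors deposited holds log2 values for each gene in each array. Normalization in R is stated in the supplementary methods. RMA and Partek appear in the notes of the submitters, versions not given. Genotypes come from the labels. Of 24973 rows, 24015 had 1 symbol in the annotation of the platform, and 958 are unnamed here. Where a symbol had several rows (4 symbols), the brightest on average was used, leaving 24011 genes. Array medians lay between 4.62 and 4.70.

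Rspo1-null minus wild-type was fitted in limma 3.58.1 (R 4.3.3) over all genes, unblocked, p-values being adjusted by Benjamini-Hochberg. The fit was checked on simulated data whose arrays varied independently, and that check does not cover the difference between the pairs of arrays. The number of arrays limits the precision, as does any difference between the pairs of arrays, which lies within each genotype. The methods' test (1-way analysis of variance at p under 0.05), an intensity trend, the replicate block, a filter on dim genes, median centring, cyclic loess, row means and fits without 1 array were alternatives. Genes are called dim if neither genotype's mean reached the background level.

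Members and lists were chosen with earlier results of these data known. Named are all members, 18 partners fixed by name and any other list gene past an unadjusted p of 0.05. Marker genes serve as context. Promoter sequences and positions are from RefSeq for GRCm38.p6.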

Additional observations from a re-analysis of the deposited data

Results flagged for a closer look

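In 6 of the 10 members the genotype difference, Rspo1-null minus wild-type, had opposite signs in the arrays with Xist and in those with Y-linked transcripts. Each value compares 1 array with 1, so that the difference between the pairs was not tested. The share of all genes with opposite signs was not counted, so the count of 6 is not particular to the members. Cav1 had -0.93 in the arrays with Xist and 2.35 in the arrays with Y-linked transcripts. Its neighbor Cav2 had -0.50 and 0.39, in the same order of pairs. Capn3 had -0.0358 and 1.58, with 3 of its 4 values below background. Dysf had -0.36 and 0.11, Cav3 -0.13 and 0.0919, and Myof -0.0034 and 0.0371.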

How the results depend on the processing

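No gene passed an adjusted p of 0.05 in limma under any alternative, nor with the methods' test. At an unadjusted p of 0.05, limma gave 760 genes (288 higher and 472 lower in Rspo1-null), the methods' test 1139, the fit of genes above background 280, the fit with the replicate block 400 and fits without 1 array 540 to 1711. Median centring turned the balance to 435 higher against 317 lower, and cyclic loess evened it, at 346 against 337. The count of members past that threshold was 0 in these, except for 0 to 1 when 1 array was left out (Capn3 without Rspo1-null 1, Cav2 without wild-type 1). In these fits the lone array of a genotype is assumed to vary like the other genotype's, and of the partners Cavin2 and Ehd2 passed without Rspo1-null 2 and Anxa6 without wild-type 2. The labels share only numbers: the deviations of same-numbered arrays correlated at -0.358, and the replicate block changed no member's call. With the crossed pairing, chosen after seeing the data, 1284 genes passed, 605 higher and 679 lower, with 0 members and 2 of the named partners, Anxa5 and Capn1, beside Capns1.

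Of the members, Cav3 changed direction with median centring (0.0346) and Myof with cyclic loess (-0.0665). With 1 array left out, the differences ranged from -0.30 to 1.72 for Cav1, -0.60 to 0.49 for Cav2, -1.07 to 1.03 for Cav3, -0.33 to 0.54 for Bin1, -0.56 to 0.30 for Dysf, -0.0416 to 0.0753 for Myof, -0.60 to 1.28 for Trim72 and -0.26 to 0.83 for Anxa1. Anxa2 and Capn3 kept their direction under all alternatives run. Of the partners, the same ranges were -0.0429 to 0.49 for Cavin1, -0.35 to 0.14 for Cavin3, -0.48 to 0.21 for Cavin4, -0.45 to 0.44 for Pacsin3, -0.74 to 0.50 for Jph1, -0.30 to 0.37 for Jph2, -0.0026 to 1.21 for Anxa5, -0.0676 to 0.47 for S100a10, -0.0905 to 1.23 for Capn1 and -0.58 to 0.11 for Ano5. Pacsin3 was also positive with median centring (0.0508) and with cyclic loess (0.0096), and Jph2 negative with cyclic loess (-0.0064). The cause of these changes was not tested. The other ferlins, all dim, gave no value in the fit of genes above background. With 2 arrays a genotype, changes smaller than the intervals given could not be seen in the unblocked fit. Those intervals also hold the difference between the pairs of arrays. With the crossed pairing, the standard error went from 0.93 to 0.15 for Cav3 and from 0.85 to 0.15 for Trim72. For Bin1 it went from 0.40 to 0.15 and for Anxa1 from 0.47 to 0.16. Among the members it rose only for Cav1, from 0.79 to 0.81. Since the values were already known when that pairing was picked, these errors are not a planned result.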
